A study of Mus musculus with 24 samples.

Results

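A set of 10 regulators that hold mouse preadipocytes back from, or commit them to, fat cell fate was followed through differentiation. Gata2, Gata3, Zfp521, Nr2f2, Twist1 and Twist2 are treated here as restraint and mesenchymal identity factors, and Zfp423, Zfp467, Ebf1 and Ebf2 as commitment factors. They were taken by annotated gene symbol. The 10 genes are among 16593 with a symbol on the array and have 15 of its 25697 probes. Of those probes 13 passed the detection filter, which asked for a detection p-value under 0.05 on at least 3 of the 24 arrays, and each of the 10 genes kept at least 1 probe.

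A preadipocyte is a fibroblast-like cell that is restricted to the fat lineage but not yet differentiated. GATA2 and GATA3 bind C/EBP proteins and the promoter of Pparg, the nuclear receptor gene that drives fat cell formation, and forced expression of either keeps preadipocytes undifferentiated. ZFP423 raises Pparg transcription and the response to BMP signals through SMAD proteins, while its close relative ZFP521 binds EBF proteins and represses the Zfp423 gene.

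The cells were 3T3-L1, an established mouse fibroblast line that forms lipid-storing adipocytes in culture, and total RNA was hybridised to Illumina beadchips. Day 0 was labelled undifferentiated, days 2 and 4 differentiating, and days 6, 8, 10, 14 and 18 maturating, with 3 replicates a day. The labels named a medium with IBMX, dexamethasone and insulin on all days, day 0 included, and a further maturation medium with insulin from day 6 on, so medium and time cannot be told apart. They do not say if the day 0 cells had already met the inducing medium. The labels do not say that replicates were separate cultures, so the p-values measure the spread between these samples, which may be technical. The 3T3-L1 line is a clonal line selected for fat formation, and no primary cells were compared.

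Between 11695 and 12531 probes were detected per array, and the correlation between replicate arrays, taken over genes, which are not independent, was 0.982 to 0.996. Levels are given on the log2 scale after normalization, each mean ± SD being over the n = 3 arrays of that day. Changes are log2 differences ± SE of a limma fit. A gene was called where its p, adjusted over the 9558 genes tested by the Benjamini-Hochberg method, was under 0.05. The 6 fibroblast markers were detected on all 24 arrays, while all 5 endothelial probes and 3 of 4 macrophage probes, among them Ptprc and Adgre1, were detected on none. In bulk samples, fewer cells of a type and less RNA per cell cannot be told apart.

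The factors were mostly lower on day 2 than on day 0, and 8 of the 10 were higher on day 18 than on day 4. Over the course all 10 passed the moderated F test, against 74.5% of all genes. On day 2, 9 had fallen and Ebf2 had risen, where 26.5% of all genes were called lower and 25% higher. The median change of the members was -0.94, and that of all genes was 0.02. By day 4, 8 were lower than on day 0 and 0 higher (31.2% and 28.9% of all genes). The counts were 7 lower and 2 higher on day 6 (33.1% and 27.6%), 7 and 2 on day 8 (32.6% and 24.9%), 6 and 3 on day 10 (32.4% and 24.1%), and 5 and 3 on day 14 (32.8% and 23.3%). By day 18, 5 were lower, 2 higher and 3 not called (34% of all genes were lower and 23.2% higher). The day means spanned least for Ebf1, 1.76-fold between day 0 and day 6, and most for Gata2, whose lowest mean, on day 4, was near background with 1 of 3 arrays detected.

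**Figure D1:**
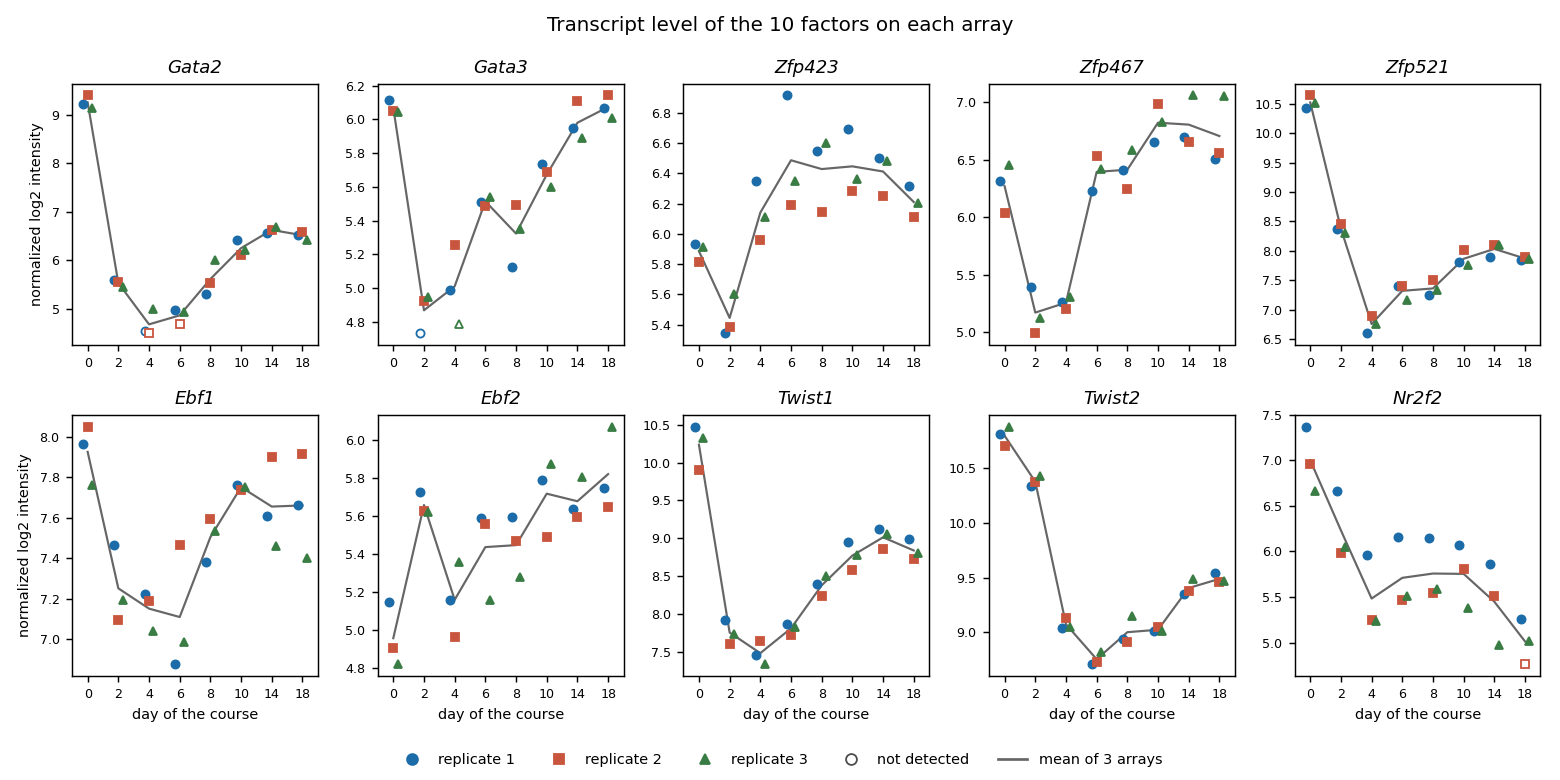
Normalized log2 intensity (vertical axis, own scale per panel) of the 10 factors on each of the 24 arrays, by day of the course, with day 14 and day 18 spaced like the other days. Symbols are replicates, open symbols arrays on which the probe was not detected, and lines the means of 3 arrays; Gata2, Zfp521 and Twist1 reach their lowest mean on day 4, and Nr2f2 on day 18.

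Gata2 had the widest range of the 10. The zinc finger factor gene (chromosome 6, 88193891 to 88207032, RefSeq, GRCm38.p6) stood at 9.22, 9.39 and 9.14 on the 3 day 0 arrays, at 5.60, 5.56 and 5.45 on day 2 and at 4.54, 4.52 and 5.0 on day 4. All day 0 arrays lay above all others, and on day 4 the probe was detected on 1 of 3 arrays, so that level is close to background. Day 2 was 13.1-fold below day 0 (-3.71 ± 0.15, adjusted p = 4.14e-14), the 11th largest fall of the 9558 genes. Day 4 was lower still (-4.56 ± 0.15 against day 0, adjusted p = 5.43e-16), but with 1 of 3 arrays detected the size of that fall is not well measured. The level then climbed to 5.62 ± 0.35 on day 8, 6.25 ± 0.15 on day 10, 6.63 ± 0.07 on day 14 and 6.52 ± 0.08 on day 18. Day 18 was above day 4 by 1.83 ± 0.15 (adjusted p = 2.18e-09), which made up 40.1% of the log2 fall, or 25% without background correction. It remained 6.64-fold below day 0 (-2.73 ± 0.15, adjusted p = 2.62e-12). In the order of day means, 14 and 18, 8 and 2, and 6 and 4 were neighbours whose arrays overlapped. The size of the changes depended on the background step: without background correction the fall to day 4 was -2.53 and the climb to day 18 was 0.63, and both still passed.

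Its relative Gata3 fell less and came back to the range of its day 0 arrays. Gata3 (chromosome 2, 9857078 to 9887953) read 6.12, 6.05 and 6.04 on day 0, 4.73, 4.92 and 4.95 on day 2, and 4.99, 5.25 and 4.79 on day 4. The day 2 and day 4 arrays overlapped with each other and lay below all day 0 arrays, and the probe was detected on 2 of 3 arrays each. Those levels are close to the lowest detected signals of 4.75 to 4.91. From the day 0 level of Gata3, a fall as large as that of Gata2 could not have been measured. The fall of Gata3 to day 2 was -1.20 ± 0.11 (adjusted p = 6.8e-09), and day 6 was above day 4 by 0.50 ± 0.11 (adjusted p = 0.00101). On day 18 the arrays gave 6.07, 6.14 and 6.01. These overlapped the day 0 arrays, and the difference from day 0 was 0.00 ± 0.11 (adjusted p = 0.978). Day 14 (5.98 ± 0.11) also overlapped day 0, while day 10 was lower (-0.40 ± 0.11, adjusted p = 0.0032). Without background correction the fall to day 2 was -0.38.

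The promoter windows of this pair are shown because the related genes changed unequally. RefSeq windows run from 250 bases before to 50 after a start site (GRCm38.p6), and capitals mark an E-box (CANNTG), the site type that basic helix-loop-helix factors such as TWIST1 bind. The Gata2 window (chr6:88198414-88198713, plus strand) starts at the downstream of its 2 listed starts, and the Gata3 window (chr2:9878551-9878850, minus strand) is the only one listed.
Gata2: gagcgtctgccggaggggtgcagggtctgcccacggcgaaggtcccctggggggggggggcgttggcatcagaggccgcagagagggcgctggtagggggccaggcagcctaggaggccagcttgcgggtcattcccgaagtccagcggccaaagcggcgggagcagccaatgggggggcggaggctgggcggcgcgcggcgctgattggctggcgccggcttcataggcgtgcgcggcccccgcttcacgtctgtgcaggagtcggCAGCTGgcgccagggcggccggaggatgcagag
Gata3: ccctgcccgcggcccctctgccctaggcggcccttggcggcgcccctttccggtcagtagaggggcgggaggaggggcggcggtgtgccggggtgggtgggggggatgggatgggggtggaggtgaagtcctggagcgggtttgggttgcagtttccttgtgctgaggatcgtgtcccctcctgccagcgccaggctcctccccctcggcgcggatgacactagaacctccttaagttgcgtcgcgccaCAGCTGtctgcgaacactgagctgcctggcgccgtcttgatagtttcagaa
Each held 1 E-box with the core CAGCTG, and the Gata2 window at the upstream start (chr6:88193641-88193940), not printed, held 0. A match is a description of letters and not a bound site: 72.3% of the 32851 RefSeq windows of this length held an E-box.

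Zfp521, which encodes the multi-zinc-finger repressor of Zfp423 (chromosome 18, 13687013 to 13972749), fell in consecutive steps. Its arrays gave 10.42, 10.64 and 10.51 on day 0, 8.38, 8.46 and 8.29 on day 2, and 6.61, 6.90 and 6.76 on day 4. The days did not overlap, and the steps were -2.15 ± 0.10 (adjusted p = 5.13e-13) and -1.62 ± 0.10 (adjusted p = 9.92e-11). Day 4 was 13.6-fold below day 0 (adjusted p = 2.59e-17). The level then rose to 7.32 ± 0.14 on day 6 (0.56 ± 0.10, adjusted p = 0.000206) and, after 7.36 ± 0.13 on day 8, to 7.86 ± 0.14 on day 10 (0.50 ± 0.10, adjusted p = 0.00705). Days 10, 14 and 18 overlapped as neighbours, and so did days 6 and 8. With 7.85, 7.90 and 7.86 on day 18, the gene was 6.3-fold below day 0 (-2.66 ± 0.10, adjusted p = 8.39e-15), the 14th largest fall, and 29.5% of the log2 fall to day 4 had come back. Without background correction the step to day 4 was -1.06 and the climb from day 4 to day 18 was 0.69.

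Nr2f2, which encodes the orphan nuclear receptor COUP-TFII, known to restrain fat cell formation in this line (chromosome 7, 70351946 to 70366746), fell and had its lowest mean on the last day. It read 7.37, 6.97 and 6.67 on day 0, 5.96, 5.25 and 5.24 on day 4, and 5.26, 4.77 and 5.02 on day 18. Replicate 1 was the highest array on each of the 8 days, and day 18, with detection on 2 of 3 arrays, had the lowest mean. Day 4 was lower than day 0 by -1.52 ± 0.28 (adjusted p = 7.32e-05) and day 18 by -1.99 ± 0.28 (3.97-fold, adjusted p = 2.95e-06). From day 6 to day 18 the change was -0.70 ± 0.28 (adjusted p = 0.0552). Within replicates 1, 2 and 3 that change was -0.90, -0.70 and -0.49, and with the replicate number as a block it passed (adjusted p = 5.56e-05). The steps to day 2 (-0.77 ± 0.28, adjusted p = 0.0248) and from day 2 to day 4 (-0.75 ± 0.28, adjusted p = 0.0357) were falls within every replicate. Within replicates 1, 2 and 3 the first was -0.71, -0.99 and -0.62, and the second -0.70, -0.73 and -0.81. Both calls could still be lost by leaving out 1 array. The first was lost without day 0 replicate 1 or day 2 replicate 2 or 3 (adjusted p 0.0848 to 0.123), and the second without day 2 replicate 1 or day 4 replicate 2 or 3 (0.122 to 0.177). Every neighbour in its order of days overlapped except day 0 with day 2. Without background correction the change to day 18 was -0.80.

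Twist1 and Twist2 encode basic helix-loop-helix factors of embryonic mesenchyme, and TWIST1 also restrains the thermogenic programme of mature fat cells. Both fell by day 2 and both were lower at the end, but the larger step of Twist1 came by day 2 and that of Twist2 between day 2 and day 4. Twist1 (chromosome 12, 33957671 to 33959831) gave 10.47, 9.91 and 10.32 on day 0, 7.93, 7.61 and 7.74 on day 2, and 7.46, 7.65 and 7.35 on day 4. Nearly all of its fall was complete by day 2 (-2.48 ± 0.14, adjusted p = 5.15e-12), and the day 2 and day 4 arrays overlapped. The step from day 2 to day 4 was -0.27 ± 0.14 (adjusted p = 0.12, or 0.0327 with the replicate block). It rose from 7.81 ± 0.07 on day 6 to 8.38 ± 0.13 on day 8 (0.57 ± 0.14, adjusted p = 0.00714) and reached 9.01 ± 0.14 by day 14, with 8.84 ± 0.14 on day 18. Its day 18 arrays, 8.99, 8.73 and 8.81, were above all day 4 arrays and below all day 0 arrays. They were 2.63-fold below day 0 (-1.39 ± 0.14, adjusted p = 1.93e-08), after a return of 49.3% of the log2 fall to day 4.

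Twist2 (chromosome 1, 91801461 to 91848034) had its larger step after day 2. It read 10.81, 10.70 and 10.87 on day 0, 10.33, 10.37 and 10.42 on day 2, and 9.04, 9.13 and 9.05 on day 4. None of these days overlapped; the first step was -0.42 ± 0.07 (adjusted p = 6.14e-05) and the second -1.30 ± 0.07 (adjusted p = 2.29e-11). The lowest mean was 8.76 ± 0.06 on day 6, 4.1-fold below day 0 (adjusted p = 2.67e-15). Small rises followed to day 8 (0.25 ± 0.07, adjusted p = 0.0296) and from day 10 to day 14 (0.38 ± 0.07, adjusted p = 0.0057). The rise to day 8 was lost without day 6 replicate 1 or 2 or day 8 replicate 3 (adjusted p 0.0907 to 0.18). At 9.54, 9.46 and 9.47 on day 18 all arrays were below day 0 and above day 6, and the gene was 2.47-fold below day 0 (-1.30 ± 0.07, adjusted p = 4.7e-12).

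For the Twist pair, whose early steps differed in size, the windows at the listed starts are chr12:33957421-33957720 (plus strand) and chr1:91801211-91801510 (plus strand). Capitals mark C/EBP-type letters, TTGCNNAA on either strand, the kind of site bound by the C/EBP factors induced at the start of differentiation.
Twist1: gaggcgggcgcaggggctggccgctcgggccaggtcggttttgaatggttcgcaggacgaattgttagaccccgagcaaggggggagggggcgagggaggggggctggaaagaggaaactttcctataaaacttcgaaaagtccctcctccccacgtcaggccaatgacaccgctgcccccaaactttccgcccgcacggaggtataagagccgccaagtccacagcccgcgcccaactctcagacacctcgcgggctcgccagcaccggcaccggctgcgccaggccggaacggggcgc
Twist2: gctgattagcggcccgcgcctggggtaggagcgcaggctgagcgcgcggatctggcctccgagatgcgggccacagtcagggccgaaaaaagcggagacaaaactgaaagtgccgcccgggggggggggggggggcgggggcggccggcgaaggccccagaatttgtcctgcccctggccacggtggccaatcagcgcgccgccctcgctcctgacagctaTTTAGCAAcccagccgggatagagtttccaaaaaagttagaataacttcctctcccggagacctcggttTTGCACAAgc
The Twist2 window held 2 matches and the Twist1 window 0, and neither held an E-box. Of all 32851 windows 10.8% held the C/EBP letters. Here too a match is not a bound site, and a link between the letters and the early steps was not tested. Among the 11 windows of the 8 factors in the RefSeq table, 2 held C/EBP letters, 7 an E-box, and 0 the GATA letters AGATAA (11.2% of all windows) or the EBF letters TCCCNNGGGA (0.904%), all searched on both strands. Zfp521 and Ebf2 had no entry in the table.

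The day means of the 4 commitment factors spanned 1.76-fold to 3.15-fold, a range that also holds Gata3 (2.31-fold). Of all 10 factors, Nr2f2 alone had its lowest mean on day 18. Zfp423 (chromosome 8, 87661810 to 87962053) read 5.93, 5.81 and 5.91 on day 0, 5.35, 5.39 and 5.60 on day 2, 6.35, 5.96 and 6.11 on day 4, and 6.91, 6.19 and 6.35 on day 6. The day 2 arrays were below and the day 4 and day 6 arrays above all day 0 arrays. The rise from day 2 to day 4 was 0.70 ± 0.16 (adjusted p = 0.00152). Days 6, 8, 10 and 14 were above day 0 by 0.53 to 0.60 (adjusted p 0.00295 to 0.00857), and without day 6 replicate 1 the day 6 value was 0.39. On day 18, at 6.31, 6.11 and 6.20, the difference was 0.32 ± 0.16 (adjusted p = 0.0949, or 0.017 with the replicate block). The dip on day 2 (-0.44 ± 0.16, adjusted p = 0.0276) was lost without day 0 replicate 1 or 3 or day 2 replicate 1 or 2 (adjusted p 0.0664 to 0.0873). It was also lost without background correction (-0.15, adjusted p = 0.114).

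Zfp467, a zinc finger factor that favours fat over bone formation in mesenchymal progenitors (chromosome 6, 48427692 to 48445992), fell and then overshot its start. Arrays read 6.31, 6.04 and 6.46 on day 0, 5.39, 4.99 and 5.12 on day 2, and 5.26, 5.20 and 5.30 on day 4. They read 6.23, 6.53 and 6.42 on day 6 and 6.66, 6.98 and 6.83 on day 10. Days 2 and 4 overlapped each other and lay below every other day, and day 10 lay above day 0. The fall to day 2 was -1.10 ± 0.15 (adjusted p = 3.81e-06), and the rise from day 4 to day 6 was 1.14 ± 0.15 (2.2-fold, adjusted p = 7.85e-06). Day 10 was above day 0 by 0.55 ± 0.15 (adjusted p = 0.00419). Day 18 was above it by 0.44 ± 0.15 (adjusted p = 0.0199), a call lost without day 0 replicate 2 (adjusted p = 0.114) or day 18 replicate 3 (0.26, adjusted p = 0.158). Without background correction the day 2 fall was -0.39 and the day 6 rise 0.42.

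The EBF pair encodes early B-cell factors, of which EBF1 promotes fat cell formation and EBF2 marks precursors of brown fat. Ebf1 (chromosome 11, 44618100 to 45008096) gave 7.96, 8.05 and 7.76 on day 0, 7.47, 7.10 and 7.19 on day 2, and 6.88, 7.47 and 6.99 on day 6. Its day 2 and day 6 arrays were below day 0 and overlapped each other. Day 2 was lower by -0.67 ± 0.15 (adjusted p = 0.000775), day 4 by -0.77 ± 0.15 (adjusted p = 0.000156) and day 6 by -0.81 ± 0.15 (adjusted p = 8.37e-05). Day 10, at 7.75 ± 0.01, and day 18, at 7.66 ± 0.26, were not called against day 0 (adjusted p = 0.352 and 0.147). Day 18 was above day 4 by 0.51 ± 0.15 (adjusted p = 0.0078) and above day 6 by 0.55 ± 0.15 (adjusted p = 0.00675). Both calls were lost without day 18 replicate 2 (adjusted p = 0.0588 and 0.0521), and without that array day 18 was lower than day 0 (-0.39, adjusted p = 0.0463).

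Ebf2 (chromosome 14, 67233292 to 67430952) was the only one of the 10 called higher on day 2. The arrays gave 5.15, 4.90 and 4.82 on day 0, 5.73, 5.62 and 5.62 on day 2, and 5.16, 4.96 and 5.36 on day 4. The day 2 arrays lay above both neighbouring days, whose arrays overlapped each other. It rose by 0.70 ± 0.14 (adjusted p = 0.000294) and fell again by day 4 (-0.50 ± 0.14, adjusted p = 0.00763). A second and slower rise followed, to 5.72 ± 0.20 on day 10 and to 5.75, 5.64 and 6.07 on day 18. Day 18 was 1.82-fold above day 0 (0.86 ± 0.14, adjusted p = 2.5e-05), with every array above every day 0 array. These levels are close to the lowest detected signals of 4.75 to 4.91, and without background correction the day 2 rise was 0.20 and the day 18 rise 0.26.

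**Figure D2:**
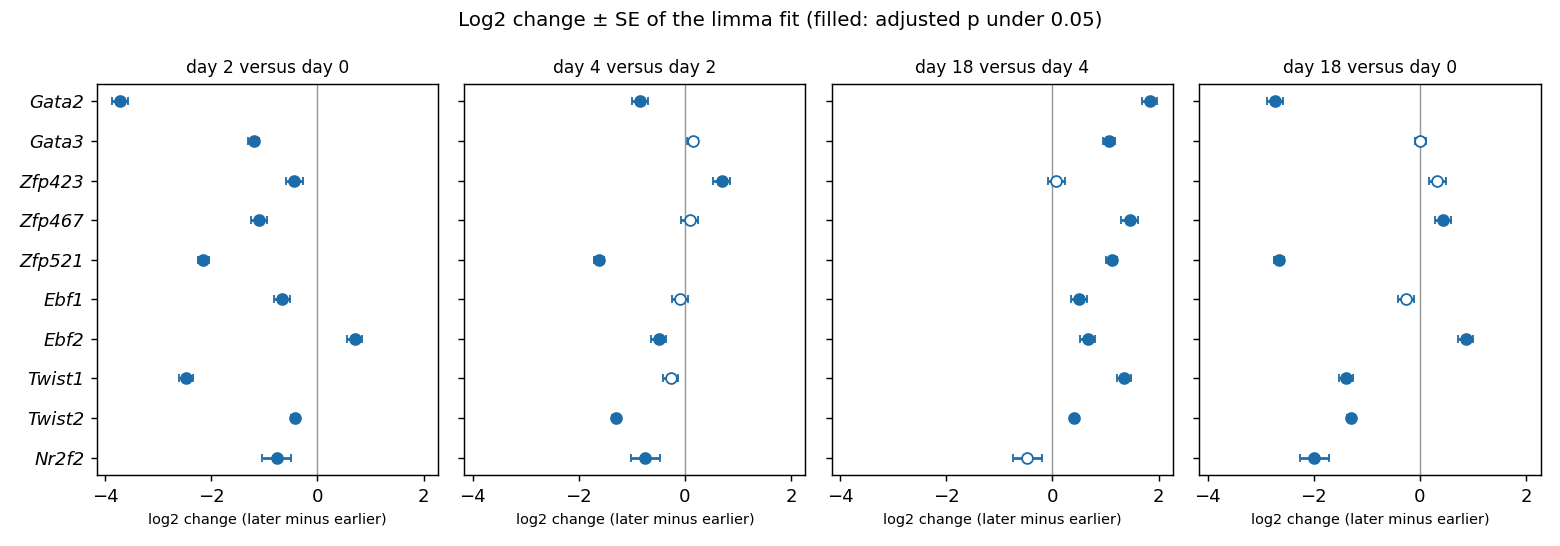
Log2 change ± SE of the limma fit (horizontal axis, later minus earlier day) for the 10 factors in 4 comparisons of n = 3 arrays per day, filled where the adjusted p was under 0.05. On day 2 Ebf2 alone lies right of 0, and from day 4 to day 18 the 8 called factors all lie right of it.

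Step by step, the calls moved from falls to rises. From day 2 to day 4, Gata2, Zfp521, Ebf2, Twist2 and Nr2f2 fell and Zfp423 rose (22.7% of all genes were lower and 18.7% higher). From day 4 to day 6, Gata3, Zfp467 and Zfp521 rose and Twist2 fell (15.3% and 14%), and with the replicate block Zfp423 (0.35, adjusted p = 0.0198) and Twist1 (0.33, adjusted p = 0.0151) rose too. Gata2, Twist1 and Twist2 rose from day 6 to day 8 (7.54% of genes were higher and 5.45% lower), Gata2 and Zfp521 from day 8 to day 10 (2.36% and 1.59%), and Twist2 from day 10 to day 14 (1.13% and 1.03%), and 0 factors fell in these steps. Ebf1 also rose from day 6 to day 8 with the replicate block (0.39, adjusted p = 0.0278, against 0.0988 without it). The day 10 rise of Gata2 (0.64 ± 0.15, adjusted p = 0.0183) was lost without day 8 replicate 1 or 2 or day 10 replicate 1 (adjusted p 0.0708 to 0.114). With the replicate block Gata3 (0.35, adjusted p = 0.0215) and Twist1 (0.39, adjusted p = 0.0194) also rose from day 8 to day 10, which made 4 factors in place of 2. Between day 14 and day 18 limma called 0 of the 10 (0.481% of all genes were called), and 0 had an unadjusted p under 0.05, against 498 of 9558 genes; the replicate block also called 0. From day 4 to day 18, 8 rose and 0 fell (23.7% and 26.8%). With the replicate block Nr2f2 fell over that interval (-0.47, adjusted p = 0.0017), with changes of -0.70, -0.48 and -0.22 within replicates 1, 2 and 3, against an adjusted p of 0.172 without it. From day 6 to day 18, 7 rose and 0 fell (18% and 18.5%). Of these Ebf2 (0.38 ± 0.14, adjusted p = 0.0401) was lost without day 6 replicate 3 (0.24, adjusted p = 0.232), day 18 replicate 1 (0.42, adjusted p = 0.0533) or day 18 replicate 3 (0.26, adjusted p = 0.214). The median change of the members from day 4 to day 18 was 0.86 and that of all genes -0.05.

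Related factors were compared within arrays, as the change in their log2 difference between day 0 (n = 3) and the 15 arrays of days 6 to 18. The exact two-sided permutation test over arrays has 816 regroupings and cannot go below 0.00123, and p-values were adjusted over the 4 pairs. The test regroups arrays freely, although the later arrays are repeated days of the same 3 replicate numbers. Its p-values may therefore be too small. Gata2 fell against Gata3 by -2.92 (adjusted p = 0.00163), with single-gene changes of -3.27 and -0.36. Ebf1 fell against Ebf2 by -1.05 (adjusted p = 0.00163), with changes of -0.39 and 0.66. Zfp423 rose against its repressor gene Zfp521 by 3.35 (adjusted p = 0.00163), with changes of 0.51 and -2.84. In these 3 pairs all 15 later arrays lay on one side of the day 0 arrays. Without background correction the Ebf difference was -0.45 with the same adjusted p.

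Twist1 and Twist2 changed by -1.67 and -1.66 over that span, a difference of -0.01 (adjusted p = 0.947) that stayed between -0.13 and 0.10 when single arrays were left out. By day the pair did differ: its difference stood at -2.06 ± 0.19 on day 2 and -1.03 ± 0.11 on day 4 relative to the day 0 mean, at -0.38 ± 0.09 on day 6, and at 0.31 ± 0.20 on day 10. All 3 arrays of days 2, 4 and 6 were below the day 0 arrays. These daily values carry no test of their own.

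**Figure D3:**
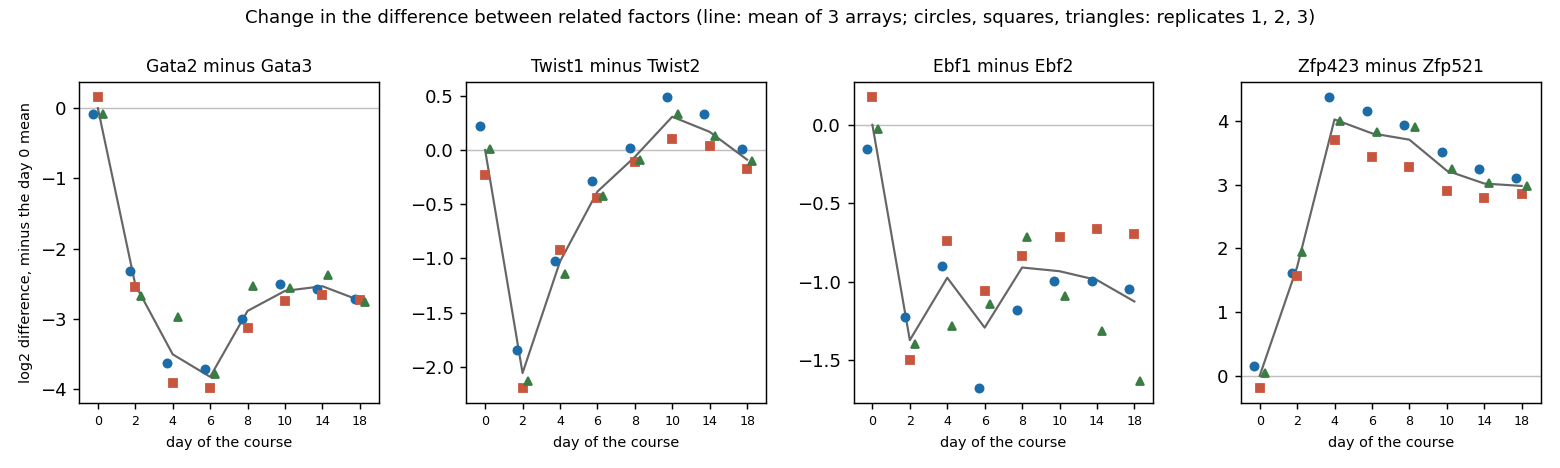
Within-array log2 difference between 2 related factors, less its mean on day 0 (vertical axis, own scale per panel), by day of the course. Circles, squares and triangles are replicates 1, 2 and 3 and lines are means of 3 arrays; the Twist difference dips to -2.06 on day 2 and returns, while the other 3 pairs do not return to 0.

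Where a factor had several probes, their courses were compared. The second Zfp423 probe gave -0.65 ± 0.20 on day 2 against day 0 (adjusted p = 0.0116) and 0.67 ± 0.20 from day 2 to day 4 (adjusted p = 0.0123) in a fit over all 14160 probes. It gave 0.56 ± 0.20 for day 10 against day 0 (adjusted p = 0.025), but 0.31 ± 0.20 for day 6 (adjusted p = 0.21), where the first probe was called. Its arrays on day 8 (6.17 ± 0.35) and day 14 (6.13 ± 0.14) overlapped those of day 0 (5.72 ± 0.34). The first probe was called on these days too. The second Ebf2 probe showed the rise on day 2 (0.54 ± 0.19, adjusted p = 0.0191), the fall to day 4 (-0.65 ± 0.19, adjusted p = 0.00804) and the higher level on day 18 (0.51 ± 0.19, adjusted p = 0.0263). A second Nr2f2 probe was detected on all 3 arrays of day 0, on 1 of day 2 and on none later, and between day 0 and day 18 it was lower by at least 1.56-fold (adjusted p = 1.67e-06). This bound sets the day 0 mean against, per day 18 array, the higher of the probe's own signal and the array's lowest detected signal. One further probe each for Zfp521 and Nr2f2 was not well above background on any array.

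**Figure D4:**
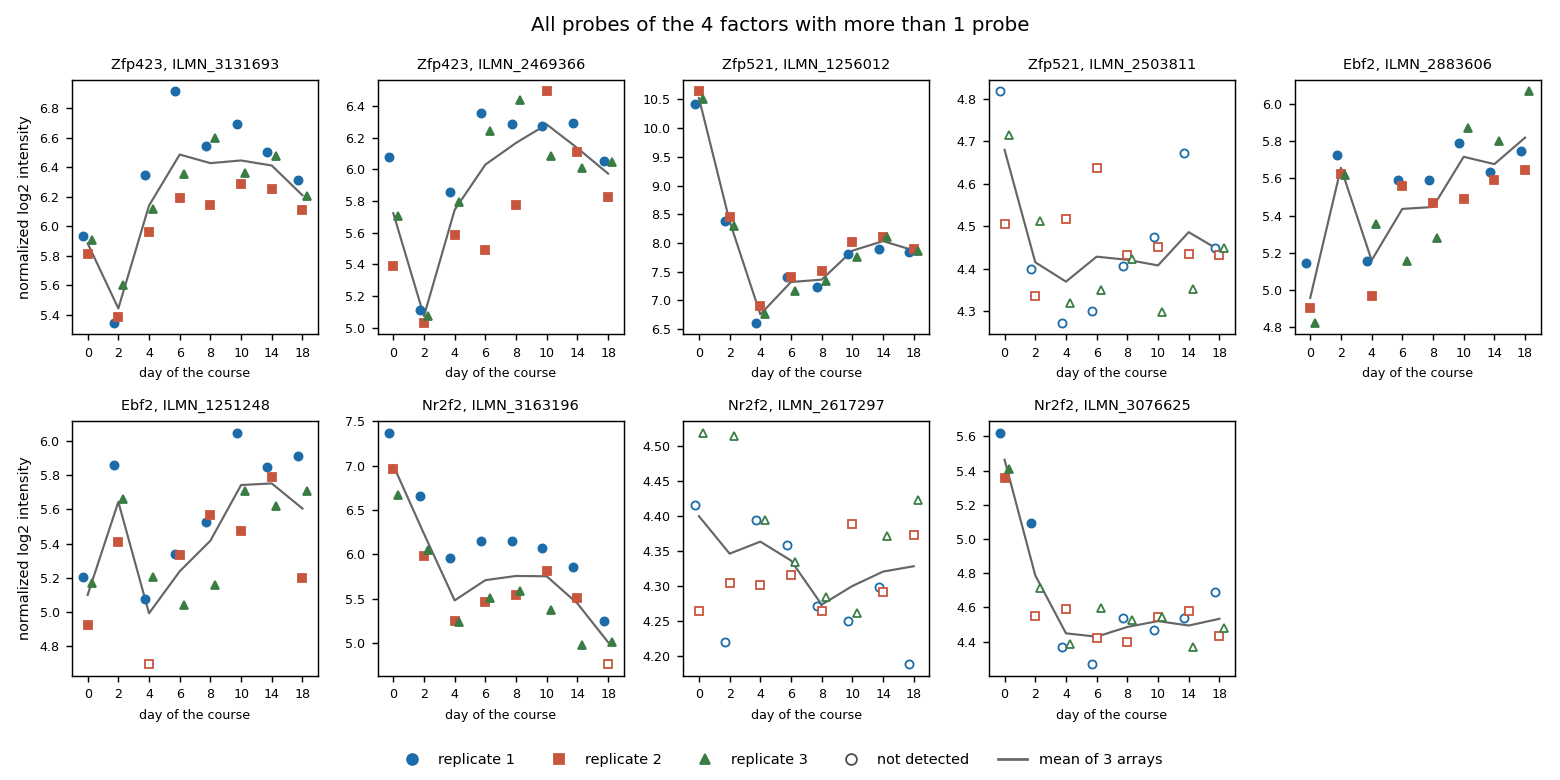
Normalized log2 intensity (vertical axis, own scale per panel) of all 9 probes of Zfp423, Zfp521, Ebf2 and Nr2f2 by day, labelled with the array's probe names. Symbols are replicates, open where the probe was not detected, and lines are means of 3 arrays; the 2 probes of Zfp423 move alike on day 2 and day 4, down and then up, and those of Ebf2 up and then down.

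The courses of the factors were also set against each other and against other genes, as Pearson's r over the 8 day means, without a test. These means share arrays and a common drop after day 0. The most alike were Gata2 and Twist1 (r = 0.97), Ebf1 and Twist1 (0.94) and Gata2 and Zfp521 (0.93), and the most opposed were Zfp423 and Twist2 (-0.83). Against Pparg, r was -0.90 for Zfp521, -0.89 for Nr2f2, -0.87 for Twist2, -0.77 for Gata2, -0.61 for Twist1, -0.42 for Ebf1 and -0.20 for Gata3. It was 0.69 for Ebf2, 0.60 for Zfp423 and 0.24 for Zfp467. Among the 4005 or 4006 other genes whose means spanned at least 2-fold, the courses nearest to Gata2 were those of Nucb1 (0.997), Arsb (0.996) and Aebp1 (0.995). Nearest to Zfp521 were Znrd1 and Rgs9bp (both 0.997) and Dclk1 (0.995), to Twist1 Gas2 (0.996), Flcn (0.995) and C1s1 (0.993), and to Twist2 Ext1 (0.996), Prkg2 (0.991) and Ccnd1 (0.990). For Gata3 they were Ccl9 (0.980), Cpq (0.975) and Hsd17b11 (0.968), for Nr2f2 Midn (0.981), Zc3h3 (0.969) and Ptk7 (0.965), for Zfp423 Macrod1 (0.984), Pcgf5 (0.983) and Rnf170 (0.979), and for Zfp467 Mylk (0.994), Tapbpl (0.993) and Naa80 (0.984). Ebf1 was nearest to Ccl11 (0.987), Efna5 (0.976) and Mfge8 (0.971), and Ebf2, with the weakest likeness, to Prps1 (0.943), Slc20a2 (0.927) and Angpt1 (0.916).

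Partners and relatives of the factors were mostly lower by day 18 as well. Of 15 tested (of 23 listed), 2 rose and 7 fell on day 2 (25% and 26.5% of all genes), and 6 were not called. By day 18 against day 0, 1 rose and 11 fell (23.2% and 34%). The medians were -0.28 and -0.99, against 0.02 and -0.08 for all genes. Zfpm2, which encodes the GATA cofactor FOG2, fell by day 2 (-1.32 ± 0.13, adjusted p = 2.2e-08), as did Ebf3 (-1.01 ± 0.11), and Tcf4, a partner of Twist proteins (-0.89 ± 0.23). Id1, whose product sequesters such partners, rose on day 2 (1.72 ± 0.13, adjusted p = 4.86e-10) and was not called on day 18 (-0.09 ± 0.13, adjusted p = 0.569). Nr2f1, the close relative of Nr2f2, was not called on day 2 (0.13 ± 0.18, adjusted p = 0.575) and had fallen by day 18 (-1.72 ± 0.18, adjusted p = 4e-08). Id2 was at least 3.81-fold lower on day 18 (adjusted p = 1.57e-07), and Id4 had fallen by -1.77 ± 0.26.

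Among other preadipocyte and mesenchymal identity genes, 28 of 37 were tested; 4 rose and 13 fell on day 2 (25% and 26.5% of all genes), and 1 rose and 18 fell by day 18 (23.2% and 34%). Their median changes were -0.60 and -0.89. The signalling gene Wnt5a fell on day 2 (-2.62 ± 0.23, adjusted p = 4.99e-09) and was not called on day 18 (-0.46 ± 0.23, adjusted p = 0.0965). Wnt6 was lower on day 18 (-3.36 ± 0.14, adjusted p = 4.1e-14), as were the transcription factor genes Osr1 (-2.44 ± 0.21) and Prrx1 (-2.04 ± 0.53), and Hoxc9 was at least 4.04-fold lower (adjusted p = 3.21e-13). Of the BMP and SMAD genes, through which ZFP423 acts, 11 of 18 were tested, and 0 rose and 8 fell on day 2 (25% and 26.5% of all genes), with a median change of -0.56. Grem1, which encodes a BMP antagonist, fell on day 2 (-2.86 ± 0.27, adjusted p = 1.98e-08) and was still low on day 18 (-3.35 ± 0.27). The inhibitory Smad6 fell by -1.39 ± 0.13 and Smad1 by -1.01 ± 0.33 on day 2. In contrast 15 of 18 adipogenic core and adipocyte genes rose on day 2 and 0 fell (25% and 26.5% of all genes). On day 18, 17 were higher and 1, Klf5, lower than on day 0 (23.2% and 34%).

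Fibroblast markers fell to day 4 and were higher again on day 18, as Gata2, Zfp521, Twist1 and Twist2 were, though Twist2 had its lowest mean on day 6. Gata3, Zfp467 and Ebf1 were likewise called lower on day 4 than on day 0 (-1.06, -1.02 and -0.77). They were called higher on day 18 than on day 4 (1.06, 1.45 and 0.51). Nr2f2, which had its lowest mean on day 18, ran differently. The summed background-subtracted intensity of the 6 markers in the authors' normalized table was 27113.6 to 30293.1 on day 0, 2459.17 to 4414.33 on day 4 and 12744.8 to 15383.2 on day 18. Over the same days the adipocyte markers, 5 of 6 with a probe, went from between 8.65 and 15.9 to between 17168.5 and 21711.5 and then between 22236.2 and 28571.6. The part of the fibroblast markers in the courses of the factors was not tested. Markers of some other lineages moved as well, and their part in the results was not tested. The macrophage sum, over 4 probes, was 26.7 to 35.2 on day 0, 2.95 to 4.23 on day 4 and at most 37.5 on day 18; of its probes Lyz2 was detected, on 9 arrays, while Ptprc, Adgre1 and Itgam were detected on none. The skeletal muscle sum, over 6 probes, went from between 55.3 and 62.9 on day 0 to between 304.1 and 354.9 on day 10, with Des, an intermediate filament gene also found outside muscle, at 5.30 on day 0 and 8.09 on day 18. Myod1, a defining factor of muscle, and Ckm were detected on no array. Of the other muscle probes, Myog was detected on 19 arrays, at 4.94 on day 0 and 5.14 on day 18. Tnnt3 was detected on 5 arrays and Actc1 on 1. The highest sums on any array were 31.3 for endothelial, 42.2 for mast cell, 73.5 for osteoblast and 71.8 for chondrocyte markers, and the T lymphocyte sum stayed below the endothelial maximum.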

How the data were processed

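The authors deposited, per the file headers, a table of probe intensity without normalization, with a detection p-value beside each intensity, and a second table of intensity that they had background-subtracted and normalized in a way that the sources at hand do not name. The submitters' processing notes name GenomeStudio 2011.1. Background correction, quantile normalization and the log2 step were done on the first table with neqc of limma 3.58.1 in R 4.3.3 (offset 16), which compresses differences near background. A probe was kept if at least 3 of 24 arrays had a detection p under 0.05 (14160 probes). Probes were named through Entrez identifiers from RefSeq (GRCm38.p6), and each of 9558 genes was represented by its brightest probe. Of 25697 probes 23978 had 1 symbol, 0 several and 1719 none. One fit with a mean per day on all 24 arrays gave the F test and 15 two-sided contrasts. The procedure was tested on simulated data in which arrays varied independently. That test does not cover deviations shared by arrays of the same replicate number. Arrays with the same replicate number deviated together in all 28 pairs of days (r 0.668 to 0.762, 0.400 to 0.651 and 0.251 to 0.504 for numbers 1, 2 and 3). The replicate block took the numbers to pair the samples. The main fit, behind the calls where no block is named, held no replicate term and left this pairing out. What a number marks is not given. All 10 members were named; of each gene list up to 4 called genes with the largest change on day 2 or day 18 against day 0 could be, and the 3 nearest courses per member. Alternatives were no background correction, the authors' table, other detection filters, a fit over probes, cyclic loess, a replicate block, only the 2 days compared, and leaving out each array. The members, gene lists and tests were chosen with earlier results of these data known. Precision is limited by 3 arrays a day and by signal over background.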

Additional observations from a re-analysis of the deposited data

How the results depend on the processing

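No direction of a called change reversed. Of 4650 member values under the alternatives, 4589 kept their side of the threshold, 30 lost a call and 31 gained one. Of the 4650, 3600 came from leaving out 1 array. Most of those arrays were outside the 2 days compared, which leaves the change itself as it was, so much of this agreement was fixed beforehand. Fits with only the 2 days compared are not among the 4650. The number of factors called from day 8 to day 10 rose from 2 to 4 with the replicate block, and it ranged from 1 to 3 when single arrays were left out. With only the 2 days compared in the fit, 1 factor was called from day 6 to day 8, 0 from day 8 to day 10 and 0 from day 10 to day 14, where fewer samples estimate the spread. The replicate block gained 9 calls and lost 0, and it changed no other count of called factors by more than 1.5 times. Over all genes it raised the calls from 1242 to 2231 (day 8 versus day 6), from 378 to 1016 (day 10 versus day 8), from 206 to 573 (day 14 versus day 10) and from 46 to 99 (day 18 versus day 14). Leaving out single arrays lowered these to no less than 185 for day 10 versus day 8, 112 for day 14 versus day 10 and 25 for day 18 versus day 14. Without background correction 57 of 91 called changes were over 1.5 times smaller and 90 were still called; probes near background have the least certain size. In the authors' table Ebf2 from day 6 to day 18 was lost (adjusted p = 0.0508) and Nr2f2 gained (-0.77, adjusted p = 0.0453). Without the detection filter the same Ebf2 change (adjusted p = 0.0603) and Nr2f2 from day 2 to day 4 (adjusted p = 0.0628) were lost; the cause was not tested. Cyclic loess gained 5 calls and lost 0. Without day 4 replicate 2 the factors called from day 0 to day 4 were 8, as with it.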
